A study of Drosophila melanogaster with 6 samples.

Results

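Pair-rule genes encode transcription factors that divide the early Drosophila embryo into segments. They are switched on in the blastoderm by maternal and gap factors, mostly in stripes of alternate segments, and they set the stripes of the segment polarity genes, such as engrailed (en). After the early stripes several of them are used again in other tissues, among them the nervous system, the mesoderm and the gut. Values of a whole embryo of stage 11 do not separate this later use from stripes that remain. The list considered here held 9 genes, ftz, eve, h, run, odd, prd, slp1, slp2 and opa, chosen by symbol and not by their values. Earlier results of these data were known when it was chosen. Of these, 6 had a probe set in the annotation of the array, 1 probe set each, out of 18769 probe sets and 11982 genes in all. No probe set was named for h, run or slp1, and these 3 genes were not analysed here.

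The arrays compared whole embryos of wild type (WT, Oregon R) with embryos mutant for fork head (fkh6 allele), the gene of the single FoxA protein of the fly, to find genes that depend on it. Both groups were at stage 11, when the germ band is extended, and both are given as Oregon R in strain. Each group had 3 independent collections, with the embryos of a collection pooled, passed through an embryo sorter and hybridized to 1 Affymetrix Drosophila Genome 2.0 array per collection. How well the sort removed siblings with a normal fkh gene is not given for the arrays. A change in a few cells is therefore averaged over all tissues, and fewer cells of a type cannot be told apart from less RNA per cell. Values are log2 intensities, normalized by the authors with RMA. The genotypes were compared by limma in 1 fit of the whole table. A change is called here where the Benjamini-Hochberg adjusted p was under 0.05 and the fold change over 1.4.

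Across the series, 12.3% of all probe sets and 15.7% of genes, each represented by its brightest probe set, were called in either direction (7.89% of genes lower and 7.8% higher in fkh). The fkh transcript was at 10.21 ± 0.08 in WT and 10.70 ± 0.11 in fkh (log2, mean ± SD of 3 arrays), a rise at the fold minimum whose call was lost in 4 of 15 alternatives. Here and below these 15 do not include a fold minimum of 2, which no change of less than 2-fold can pass. They do include no fold minimum and an unadjusted p, which only loosen the threshold and cannot lose a call. Since the lesion of fkh6 is not given in the sources used here, this level does not check the labels. The fkh collections differed more among themselves than the WT ones, with a median SD of a probe set of 0.146 against 0.0751. Markers of differentiated muscle stood apart between the groups: all 4 measured genes were called higher, with a mean level of 4.59 to 5.002 in WT and 9.01 to 11.06 in fkh arrays. Hemocyte markers had 3 of 6 called higher and 1 lower, with a mean level of 7.48 to 7.56 in WT and 8.59 to 8.97 in fkh arrays. The muscle markers thus separated the groups although both carry the same stage label, and the part of this in the values below was not tested.

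None of the 6 pair-rule genes was called in fkh mutants by limma, against 12.3% of all probe sets and 15.7% of all genes. In a list of 6, a count of 0 is not far from these shares. At an unadjusted p under 0.05 the number was 1 (prd), and it was 0 when an ordinary equal-variance test took the spread of each gene alone. The mean was lower in fkh for 4 genes and higher for 2, with eve and opa turning to higher after cyclic loess, and the median log2 fold change of the 6 was -0.07, against -0.08 for all probe sets. Intervals of the differences say how large a change these arrays leave room for. For eve, odd and opa the 95% interval lay within a 1.4-fold change in either direction. The intervals of ftz and prd reached a fall of more than 1.4-fold, and that of slp2 a rise of 1.41-fold. All 6 genes were above the median of the array on every array, with medians of 5.36 to 5.45. By mean level eve ranked at 63.2% of all probe sets, prd at 65.1% and odd, the brightest, at 89.3%. No detection call was used, so how far each lay above background is not known.

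**Figure D1:**
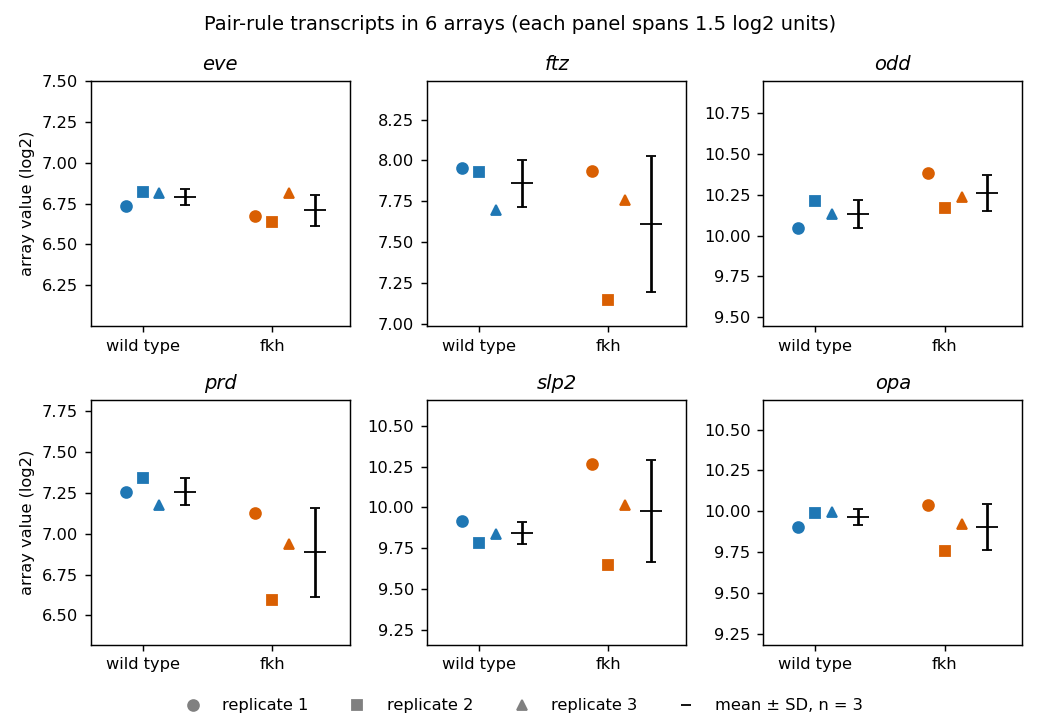
Array values (log2) of the 6 measured pair-rule genes in 3 WT and 3 fkh arrays, 1 panel per gene and 1 symbol per replicate, with the mean and SD (n = 3) beside each group. Each panel spans the same height, and in all 6 genes replicate 2 (square) is the lowest of the fkh arrays; only in prd do the groups not overlap.

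Among the genes of the first tier, eve encodes a homeodomain repressor, and after the stripes it is made in a few neurons of each segment, in cells of the dorsal mesoderm near the future heart, and around the anal plate. Its probe set (1622897_at) was at 6.74, 6.82 and 6.82 in WT replicates 1 to 3 and at 6.67, 6.64 and 6.82 in fkh replicates 1 to 3. The third fkh array lay among the WT arrays and the other two just under them. The mean was 1.06-fold lower in fkh (a log2 difference of -0.08, standard error 0.08, adjusted p = 0.526 from limma), with a 95% interval from 1.21-fold lower to 1.07-fold higher. Of the 6 genes, eve had the narrowest interval.

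The homeodomain gene ftz lies between the Hox genes Scr and Antp and is used later in neurons of the ventral nerve cord. Its probe set (1637677_at) gave 7.95, 7.93 and 7.69 in WT and 7.94, 7.14 and 7.76 in fkh. Both fkh replicates 1 and 3 lay within the WT range, and replicate 2 lay far below it, by 0.62 under the next fkh array. The mean was 1.19-fold lower in fkh (a log2 difference of -0.25, standard error 0.20, adjusted p = 0.461), with an interval from 1.66-fold lower to 1.18-fold higher. Without fkh mutant replicate 2 the log2 fold change was -0.01, so that the lower mean of ftz came from this array. The adjoining genes did not pass the test either: Scr had a log2 fold change of -0.02 and Antp of -0.11.

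The zinc finger gene odd encodes a repressor. It was measured (1625850_at) at 10.05, 10.21 and 10.13 in WT and at 10.38, 10.17 and 10.23 in fkh. The fkh arrays tended to lie at the upper end of WT, 2 of them above its range and the third inside it. The mean was 1.09-fold higher (log2 fold change 0.13, standard error 0.09, adjusted p = 0.370), with an interval from 1.06-fold lower to 1.26-fold higher.

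Of the second tier, prd encodes a protein with a paired domain and a homeodomain, which activates en and gsb in their stripes and is later found in the head. Its values (1633879_a_at) were 7.25, 7.34 and 7.18 in WT and 7.13, 6.59 and 6.94 in fkh. It was the only member whose groups did not overlap, which was so for 38.6% of all probe sets, with each fkh array below each WT array. The mean was 7.26 ± 0.08 in WT and 6.89 ± 0.27 in fkh (log2, mean ± SD of 3 arrays), or 1.29-fold lower. The log2 fold change of -0.37 (standard error 0.14) had an adjusted p of 0.125 from limma and did not reach the fold minimum. The interval ran from 1.63-fold to 1.03-fold lower. Without fkh mutant replicate 2 the log2 fold change was -0.22, and without fkh mutant replicate 1 it was -0.49 (adjusted p = 0.0538), the closest that prd came to a call on p.

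The gene slp2 encodes a forkhead domain protein, as fkh itself does, and with slp1 it keeps the stripes of wingless in the ectoderm. Its probe set (1627053_at) was at 9.91, 9.78 and 9.84 in WT and at 10.27, 9.65 and 10.02 in fkh. The fkh arrays fell on both sides of WT, with 2 above its range and 1 below. Their SD was 4.72 times that of WT, the highest ratio of the 6 genes. The mean was 1.10-fold higher (log2 fold change 0.13, standard error 0.15, adjusted p = 0.604), with an interval from 1.17-fold lower to 1.41-fold higher. It was 0.30 without fkh mutant replicate 2 and -0.01 without fkh mutant replicate 1.

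The zinc finger gene opa, of the Zic family, is expressed in a broad band and not in stripes in the early embryo, and is needed later in the visceral mesoderm of the midgut. It gave (1628865_at) 9.91, 9.99 and 9.99 in WT and 10.04, 9.76 and 9.92 in fkh. Here too the fkh arrays lay on both sides of WT. The mean was 1.04-fold lower (a log2 difference of -0.06, standard error 0.09, adjusted p = 0.698), with an interval from 1.21-fold lower to 1.11-fold higher. Its sign depended on the setting, with a log2 fold change of 0.06 after cyclic loess and 0.01 without fkh mutant replicate 2.

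**Figure D2:**
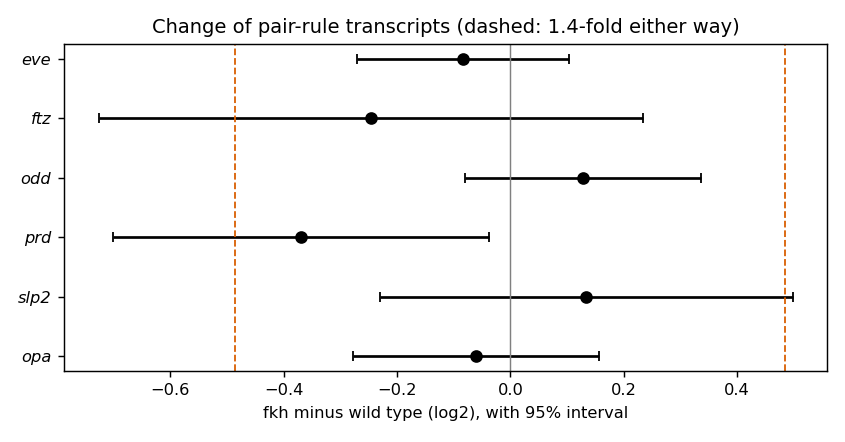
Difference between fkh and WT (log2) for each pair-rule gene, with its 95% interval from limma; dashed lines mark a 1.4-fold change in either direction. The intervals of eve, odd and opa stay inside both lines, those of ftz and prd cross the lower line, and that of slp2 just crosses the upper line.

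Single fkh arrays differed more than the group means did. In all 6 genes fkh replicate 2 had the lowest value of the 3 fkh arrays, and in 5 of them (all but odd) the lowest of all 6 arrays. Over all genes, replicate 2 was the lowest fkh array for 42.3%, replicate 1 for 24.2% and replicate 3 for 33.5%. The gap from replicate 2 to the next fkh array was 0.62 for ftz, 0.37 for slp2, 0.35 for prd and 0.17 for opa in log2 units, and it was 0.07 for odd and 0.04 for eve. The mean level of the 6 genes was 8.61 to 8.68 in WT arrays, and 8.74, 8.32 and 8.61 in fkh replicates 1, 2 and 3. The SD of the fkh arrays was above that of WT in all 6 genes, with a median of 0.207 against 0.0743. Without fkh mutant replicate 2 no member was called, and 3 of the 6 means were lower in fkh.

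Transcripts loaded into the egg by the mother moved the other way in the same array. Of 12 measured maternal and germ line genes, 10, among them bcd and osk, were highest in fkh replicate 2 among the fkh arrays. This held for 3203 of all 11982 genes. The exceptions in the list were stau and vas, and vas was lowest in replicate 2. The mean level of the 12 genes was 7.76 to 7.89 in WT arrays, and 7.68, 8.65 and 7.43 in fkh replicates 1, 2 and 3. The muscle markers were also highest in replicate 2, with 11.06 against 10.42 and 9.01 in replicates 1 and 3. The segment polarity genes showed the pattern of the pair-rule genes, with 7 of 9 lowest in replicate 2. Their mean levels were 8.94, 8.56 and 8.79 in fkh replicates 1, 2 and 3, against 8.86 to 8.95 in WT. This was not particular to segmentation genes. Among lists described below, replicate 2 was the lowest fkh array for 6 of 8 heart genes, 7 of 11 relatives and 5 of 8 early neuron genes. It was lowest for 4 of 11 upstream factors, 3 of 8 cofactors, 3 of 6 hindgut and foregut genes, 2 of 6 visceral mesoderm genes and 2 of 5 blastoderm genes. The part of these differences between collections in the values of the pair-rule genes was not tested.

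**Figure D3:**
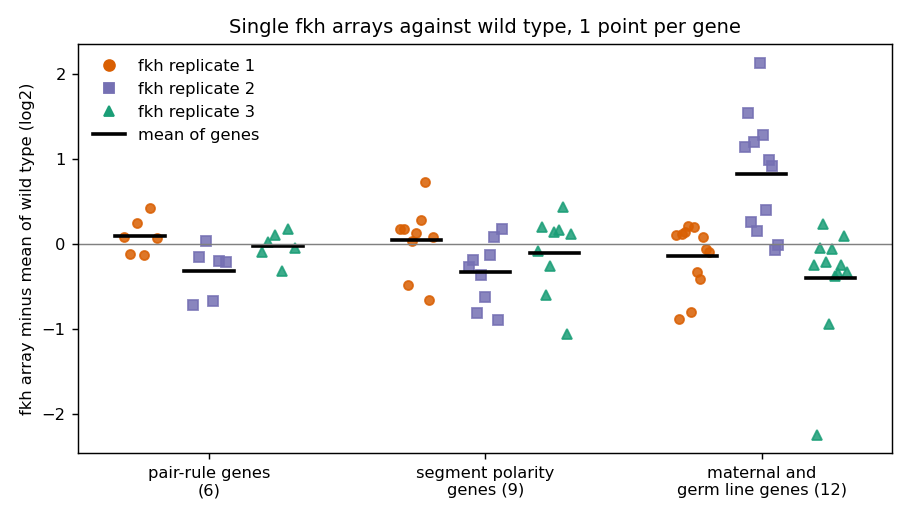
Difference of each fkh array from the WT mean (log2), 1 point per gene and 1 symbol per fkh replicate, for the 6 pair-rule, 9 segment polarity and 12 maternal and germ line genes, with a bar at the mean of the genes. In replicate 2 the pair-rule and segment polarity genes lie mostly below 0, and the maternal genes mostly above.

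The genes that act with the pair-rule genes were compared in lists chosen by function, with earlier results of these data known. Counts in these lists are therefore a description. Of 11 factors upstream of the stripes, 3 were called lower and 1 higher in fkh, against 7.89% and 7.8% of all genes. Their median log2 fold change was -0.21. The gap genes gt and hb and the terminal gene hkb were 1.84-fold, 1.59-fold and 1.46-fold lower, and tll, which sets the ends of the embryo, was 1.69-fold higher (adjusted p = 0.0043, 0.020, 0.011 and 0.031 from limma). For these genes too the arrays do not separate early from later use. The call of gt held in the 15 alternatives and was lost at a fold minimum of 2, while those of hb, hkb and tll were each lost in 4 of the 15. The activator zld and the Sox gene D (Dichaete), which is needed for normal pair-rule stripes, had log2 fold changes of -0.32 and -0.21 and were not called.

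Cofactors of the pair-rule proteins were mostly not called. Of 8 measured, 1 was lower, the histone deacetylase gene HDAC1 (1.49-fold, adjusted p = 0.041), and this call was lost in 10 of 15 alternatives. The corepressor genes gro, CtBP and Gug, whose products bind Hairy, Eve and others, had log2 fold changes of -0.24, -0.03 and -0.12. The nuclear receptor gene ftz-f1, the partner of Ftz, had 0.16, with a wide spread in both groups (SD 0.39 in WT and 0.56 in fkh). For Runt the partner subunits Bro and Bgb gave -0.11 and -0.29. The count of 1 in 8 is close to the 15.7% of all genes called.

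Among 9 segment polarity genes, 2 were called, both lower, against 7.89% of all genes called lower. The T-box gene mid was 1.83-fold lower and the signal gene hh 1.55-fold lower (adjusted p = 0.0030 and 0.0065). The call of mid held in the 15 alternatives and that of hh in all of them but cyclic loess, and both were lost at a fold minimum of 2. The genes most often read as the output of pair-rule stripes were not called: en was at 11.30 ± 0.05 in WT and 11.24 ± 0.23 in fkh, and its neighbour inv at 7.66 ± 0.11 and 7.72 ± 0.22 (log2, mean ± SD of 3 arrays). The paired-class genes gsb and gsb-n had log2 fold changes of 0.10 and 0.41. The median over the 9 genes was -0.06, against -0.07 for the pair-rule genes and -0.08 for all probe sets.

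**Figure D4:**
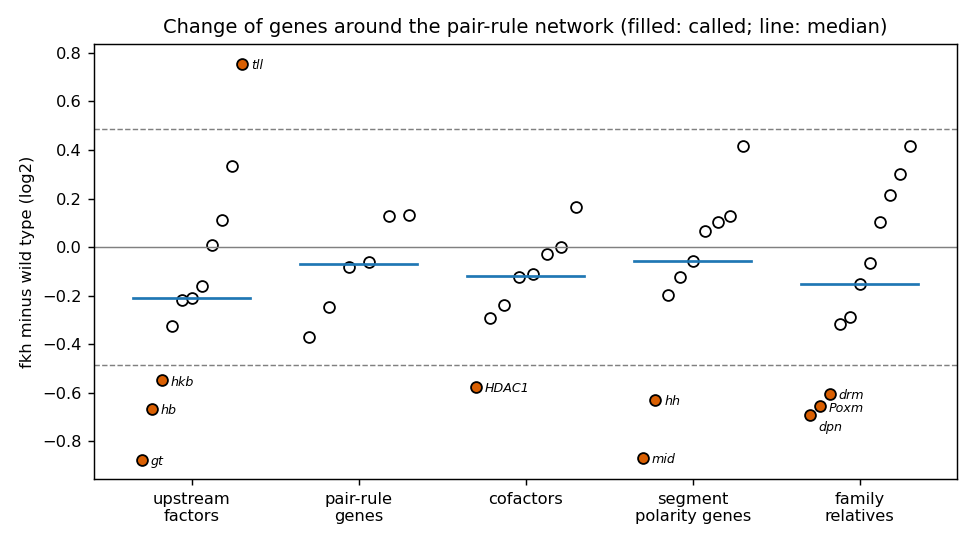
Difference between fkh and WT (log2) for genes of 5 lists, 1 point per gene; filled points with a name were called by limma, the bar is the median of the list and dashed lines mark a 1.4-fold change. All 6 pair-rule genes are open, and the called genes lie in the other lists: 4 upstream factors, 1 cofactor, 2 segment polarity genes and 3 relatives.

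Relatives of the pair-rule proteins were called lower in 3 of 11 cases and higher in none, against 7.89% and 7.8% of all genes. Their median log2 fold change was -0.15. Both gsb and gsb-n are counted here and among the segment polarity genes. Those called were dpn, a gene of neuroblasts related to hairy (1.61-fold lower, adjusted p = 0.019 from limma), Poxm, a mesodermal gene with a paired domain (1.58-fold, 0.010), and drm, of the Odd family (1.52-fold, 0.030). Leaving out wild type replicate 1 gave a count of 0, and leaving out either of the other WT arrays a count of 1. The Runt genes lz, RunxA and RunxB and the Odd family genes sob and bowl were not called.

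The genes odd, sob and drm lie close together on chromosome arm 2L and encode related zinc fingers, of which drm is needed in the gut. No protein-coding gene lies between odd and sob, and 2 lie between odd and drm, sob among them. In WT drm was at 10.42, 10.34 and 10.26, and in fkh at 10.04, 9.69 and 9.48. Every fkh array of drm was below WT, whereas those of odd were within or above the WT range. The array values of sob were 9.22, 9.16 and 9.08 in WT and 9.04, 8.59 and 8.96 in fkh, also below WT in each array, with a log2 fold change of -0.29 (adjusted p = 0.178). Taken within each array, the difference between odd and drm was -0.21 ± 0.14 in WT and 0.53 ± 0.21 in fkh (log2, mean ± SD of 3 arrays), a shift of 0.73 (standard error 0.14). That between odd and sob shifted by 0.42 (standard error 0.12). Neither pair overlapped between the groups, and the two-sided exact permutation p was 0.1 for each (0.1 also when adjusted over both), the smallest that 3 arrays against 3 can give. This contrast was chosen after the values were seen. The call of drm was lost in 7 of 15 alternatives, among them without any 1 of the WT arrays.

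**Figure D5:**
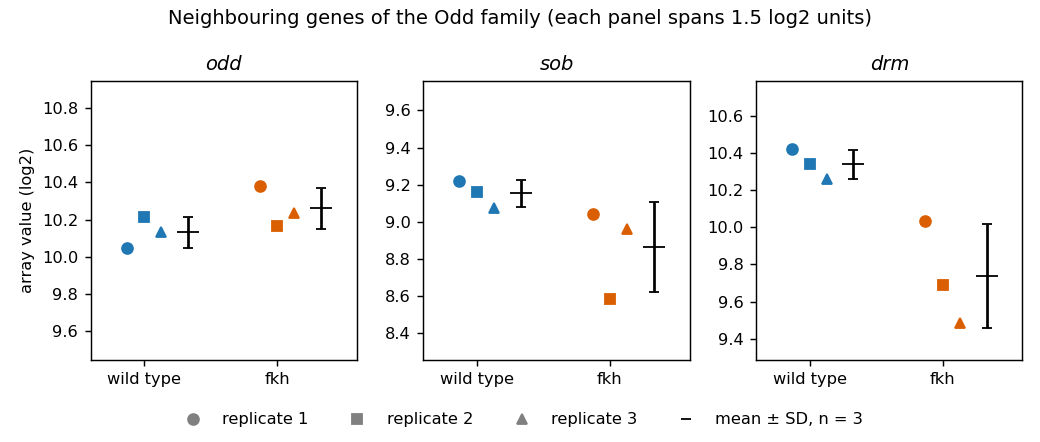
Array values (log2) of odd and its neighbours sob and drm in 3 WT and 3 fkh arrays, 1 symbol per replicate, with the mean and SD (n = 3) beside each group. Each panel spans the same height; the fkh arrays of drm and sob lie below those of WT, and those of odd do not.

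Other neighbours of the 6 genes were read in the same way, as the nearest measured protein-coding genes along the chromosome, up to 2 on each side. Of these 24 genes, drm and sob among them, 6 were called (25.0%, against 15.7% of all genes), 3 lower and 3 higher. Next to slp2, TTLL4B was 1.47-fold lower, and Reph, beyond slp1, was 2.18-fold higher. Near prd, firl was 1.77-fold higher, near opa, Gnf1 was 1.53-fold lower, and next to odd, Ugt36A1 was 1.58-fold higher. None of the 4 neighbours of eve and none of the 4 of ftz was called.

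Genes of tissues in which pair-rule genes act at this stage were also counted by list. The counts below stand beside 15.7% of all genes called in either direction. Most genes of each list were not called. With 5 to 8 genes per list, the counts are too small to set a list apart from that share. Among 8 genes of early neurons, exex, a homeodomain gene of motor neurons, was 3.68-fold lower and the RNA-binding protein gene fne 5.78-fold higher, and the other 6 were not called, nor were eve and ftz. Of 8 heart genes, pnr was 2.46-fold lower and Hand 3.27-fold higher. Of 6 visceral mesoderm genes, bap was 2.04-fold lower (Hand is also of this list), next to an opa level that did not pass the test. In the hindgut and foregut list byn was 2.27-fold lower, besides drm, and none of the 6 was called higher. Calls of exex, fne, pnr, bap and byn held in the 15 alternatives and at a fold minimum of 2, and that of Hand was lost in the equal-variance test. Of 5 genes of the cellularizing blastoderm, the time of pair-rule stripes, 1 was called, halo, which was 2.07-fold lower (not called in the equal-variance test), and their mean level was 6.88 to 7.18 in WT and 6.31 to 6.63 in fkh arrays. Of the visceral mesoderm markers, Alk and jeb were dim, at 4.06 and 4.40 in fkh, below the median of each fkh array.

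As a description, the genes whose values over the 6 arrays ran most like those of a member were found by Pearson correlation among 11981 other genes. For ftz they were the splicing factor gene Prp18 and CG30284, for prd the Mediator gene kto and the homeobox gene caup, and for slp2 comm2 and the proneural gene sc. For eve they were CG17380 and CG17283, for odd CG43278 and CG12236, and for opa Sbf and CG9308. The coefficients lay between 0.971 (CG9308) and 0.999 (Prp18). The points of each correlation are the same 6 arrays, and between 7 genes (odd) and 97 genes (prd) were above 0.95 with a member, so that no single gene stands out from this measure.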

How the data were processed

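Total RNA of whole stage 11 embryos from 3 WT and 3 fkh6 collections was measured on 6 Affymetrix Drosophila Genome 2.0 arrays. The deposited values are log2 intensities of 18769 probe sets, normalized by the authors with RMA in Partek, which corrects the background, equalizes the quantiles of the arrays and summarizes probes. Versions: not given in the sources used here. No value was filtered out and no detection call was used. The number of arrays limits the precision.

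Probe sets were named with the array's annotation, updated by gene ID to the symbols of RefSeq Release 6, which also gave chromosome arms and gene order: 13647 named 1 gene, 402 several and 4720 none. A gene was represented by its brightest probe set over all 6 arrays. WT and fkh were compared by lmFit and eBayes of limma 3.58.1 (R 4.3.3) without covariates, and p-values were adjusted across the whole table, with 95% intervals from the moderated spread. Of the methods' threshold, a p under 0.05 and a fold of 1.4, the fold was kept. The fit was tested on simulated data. Replicate numbers are not described as pairs in the sources used here, and the main fit did not pair the arrays. Exact permutation tests used SciPy 1.17.1 in Python 3.11.15. The members and lists were chosen with earlier results of these data known. Named are all members, up to 3 called genes per direction and list, fkh and the 2 genes most correlated with each member; for muscle and hemocyte markers only list values are given. Neighbours and sob, and other uncalled list genes, were added after their values were seen. Alternatives were an equal-variance test, array weights, an intensity trend with a robust prior, cyclic loess, ribosomal protein scaling (47 probe sets), leaving out the dimmest 33.3% of probe sets or each array in turn, the replicate block, other thresholds and the mean of a gene's probe sets.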

Additional observations from a re-analysis of the deposited data

How the results depend on the processing

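No pair-rule gene was called in any of the 17 alternatives run for each. A fold minimum of 2 could not add a call, being stricter than the main threshold. The mean of a gene's probe sets left each log2 fold change unchanged, since each member had 1 probe set. Log2 fold changes ranged from -0.41 to -0.01 for ftz, -0.14 to 0.07 for eve, 0.07 to 0.24 for odd, -0.49 to -0.21 for prd, -0.01 to 0.30 for slp2 and -0.13 to 0.06 for opa, and the lowest adjusted p was 0.0538 for prd and 0.0754 for odd (after cyclic loess). The sign turned for eve after cyclic loess (0.0717), for slp2 without fkh mutant replicate 1 (-0.0115), and for opa with array weights (0.0122), after cyclic loess (0.0567) and without fkh mutant replicate 2 (0.0138), as did the median of all probe sets after cyclic loess (0.0057). The causes were not tested.

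The 2313 calls over all probe sets became 944 in the equal-variance test and 947 at a fold minimum of 2, and from 1373 and 1455 (wild type replicates 3 and 1 left out) to 2666 when 1 array was left out. Higher calls made up 50.2% of all, and 65.3% after cyclic loess. Deviations of same-numbered arrays correlated at 0.072, 0.0727 and -0.0785. Arrays of unlike number were not compared in this way, and whether the numbers mark a shared batch was not tested. With the replicate block in limma, 2237 probe sets were called and no member (prd -0.37, adjusted p = 0.169). Upstream genes called (4) were 1 in the equal-variance test, 0 at a fold of 2 and 1 to 4 without 1 array. The 1 cofactor was lost (0) in the equal-variance test, with array weights, after cyclic loess or ribosomal protein scaling, with the replicate block and at a fold of 2, and the count was 0 to 1 without 1 array. Called segment polarity genes (2) were 0 at a fold of 2, and 3 with array weights and without fkh mutant replicate 2. Called relatives (3) were 0 in the equal-variance test and at a fold of 2, and 0 to 3 without 1 array. They were 4 after cyclic loess and with no fold minimum, and 2 with the mean of a gene's probe sets. With 3 arrays per group, differences of less than the half-widths of the intervals, 0.19 (eve) to 0.48 (ftz) in log2 units, were not detectable.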
